A study of Mus musculus with 96 samples.

Results

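A set of 8 receptor genes of the mouse liver, written here by symbol as Nr1i3, Nr1i2, Rxra, Nr1h4, Nr1h3, Hnf4a, Nr5a2 and Esr1, were followed across a dietary dose series. They were chosen by name, with earlier results of these data known, and all 8 were among the 18193 genes measured. Where a gene had several probe sets, the brightest on average stood for it. The study profiled liver RNA of female and male CD-1 mice, an outbred stock, given PB in the diet (PB is not spelled out in the labels and commonly stands for phenobarbital). Mice received 150, 75, 15, 1.5 or 0.15 mg/kg-day, or 0 as controls, and were sampled on day 2 or day 7, which made 24 groups of 4 arrays, 96 in all. No genetic change is named for any group, the dose 0 groups differed from the treated ones only in the diet as far as the labels say, and age is not given. The labels conflict on the dose unit: titles of the samples say ppm, and the design description says mg/kg-day for identical figures, which is followed here. Whether each array came from a separate mouse is not stated, so p-values measure the spread between these samples, which may be technical in part.

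Nuclear receptors are transcription factors that bind short DNA elements and, in many cases, small lipophilic ligands. CAR (gene Nr1i3) and PXR (Nr1i2) sense drugs and other foreign compounds and switch on cytochrome P450, conjugation and transporter genes in hepatocytes; phenobarbital activates CAR indirectly, by way of the EGF receptor, and CAR then moves from the cytoplasm into the nucleus. RXRα (Rxra) is the shared dimer partner of CAR, PXR, the bile acid receptor FXR (Nr1h4) and the oxysterol receptor LXRα (Nr1h3), whereas HNF4α (Hnf4a) binds DNA as a homodimer and LRH-1 (Nr5a2) as a monomer; both maintain hepatocyte gene expression. Estrogen receptor α (Esr1) is the main estrogen receptor of the liver.

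The start regions of CAR and of of PXR and FXR are shown because CAR was the member whose mRNA moved most with dose, PXR is its nearest relative, and FXR was among those that differed most between the sexes. Each is the 250 bases before the gene's single RefSeq start site in GRCm38.p6, read 5′ to 3′ on the gene's strand. Capitals mark matches to CAAAG, the core of HNF4α elements, and to AGGTCA, the core hexamer that many nuclear receptors bind, on either strand (CTTTG and TGACCT are the same motifs on the opposite strand); the searched motifs do not overlap in these windows.
Nr1i3 (chr1:171213720-171213969, plus strand): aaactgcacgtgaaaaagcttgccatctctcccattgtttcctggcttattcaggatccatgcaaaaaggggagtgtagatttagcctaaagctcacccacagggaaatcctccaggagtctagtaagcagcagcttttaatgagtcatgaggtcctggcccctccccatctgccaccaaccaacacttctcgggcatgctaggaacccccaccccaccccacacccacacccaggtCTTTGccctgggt
Nr1i2 (chr16:38294825-38295074, minus strand): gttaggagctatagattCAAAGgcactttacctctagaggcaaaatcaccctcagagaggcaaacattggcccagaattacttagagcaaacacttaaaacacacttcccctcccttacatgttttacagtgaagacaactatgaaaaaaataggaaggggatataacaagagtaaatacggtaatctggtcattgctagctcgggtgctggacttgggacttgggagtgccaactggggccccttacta
Nr1h4 (chr10:89506659-89506908, minus strand): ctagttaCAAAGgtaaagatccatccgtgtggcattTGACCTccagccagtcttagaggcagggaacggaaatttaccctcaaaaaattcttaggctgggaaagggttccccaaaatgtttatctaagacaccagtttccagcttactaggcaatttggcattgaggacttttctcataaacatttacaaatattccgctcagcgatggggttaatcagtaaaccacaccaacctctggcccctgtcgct
In the Nr1i3 window 1 CAAAG match lay on the opposite strand 13 bases before the start. The Nr1i2 window had 1 CAAAG match 233 bases before the start and no AGGTCA. The Nr1h4 window held CAAAG 243 bases and AGGTCA, on the opposite strand, 214 bases before the start. RefSeq listed 13 such windows for the 8 genes. Of these, 10 of 13 held CAAAG and 3 of 13 held AGGTCA, against 48.6% and 14% of all 32851 promoter windows of the same length. The Nr1h3 windows overlap and share CAAAG matches, so the 13 are not all separate sequences. A pair of AGGTCA in the same orientation, with any 1 base or any 4 bases between the copies (both strands searched), was found in 0.0335% and 0.0152% of all windows and in none of the 13. A match describes the letters only.

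The labels were checked before the comparisons. Xist, the RNA of the inactive X chromosome, read 12 to 12.5 in the 48 arrays labelled female and 4.63 to 5.89 in the 48 labelled male. Cyp2b10, the P450 gene most used as a readout of CAR, was 5.78 ± 0.20 (SE) log2 units higher at 150 than at dose 0 over both sexes and days (limma, adjusted p = 1.11e-38). In 2 arrays of males on day 2 it went against the dose label: the array labelled 15, replicate 1, read 13.66 where the other 3 read 11.07 to 11.29, and the array labelled 75, replicate 1, read 10.98 where the other 3 read 13.19 to 13.36. Cyp2c55 gave the same picture (13.01 against 8.89 to 10.14, and 9.82 against 12.54 to 12.74). Results at 15 and 75 are therefore given with and without these libraries where they bear on a call. Hepatocyte markers averaged 14.11 to 14.27 on the log2 scale in every array, near the top of the scale. All values below are the deposited log2 expression values or differences of them. A receptor was called changed at an adjusted p below 0.05 (limma on all 18193 genes, Benjamini-Hochberg adjustment).

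CAR mRNA was lower at the highest dose on average over both sexes and days; of the 4 groups by sex and day, the change passed the test only in males on day 7. Over both sexes and days, Nr1i3 at 150 mg/kg-day was 0.62 log2 units below dose 0, which is 1.53-fold, and at 75 it was 0.33 below. In females on day 2 the dose 0 arrays read 10.15, 9.97, 9.94 and 9.90 and the arrays at 150 read 9.67, 9.36, 9.88 and 9.61. In females on day 7 they read 10.33, 10.63, 10.17 and 10.22 at dose 0 and 9.96, 9.70, 9.11 and 9.91 at 150. Every treated female array lay below every control of its day. In males on day 2 the Nr1i3 values were 9.91, 9.82, 9.53 and 9.47 at dose 0 and 9.11, 8.94, 9.11 and 9.25 at 150. In males on day 7 they were 9.94, 9.59, 9.49 and 9.60 at dose 0 and 8.46, 8.40, 9.09 and 9.22 at 150. The male groups did not overlap either. Over all genes, the share whose 4 treated arrays all lay below the 4 controls was 5.61% in females on day 2, 4.34% in females on day 7, 5.99% in males on day 2 and 2.89% in males on day 7.

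In single groups of 4 arrays the change in Nr1i3 was measured with an SE of 0.20. Males on day 7 were the only group of 4 in which a dose passed: the change at 150 was -0.86 ± 0.20 (SE, 4 against 4 arrays; limma adjusted p = 0.00474), a 1.82-fold lower level. At 150 the change was -0.67 in females on day 7 (limma adjusted p = 0.0541), -0.58 in males on day 2 (0.0812) and -0.36 in females on day 2 (0.39). Of the 160 tests of a receptor at 1 dose in 1 sex and day, this was the only call; for comparison 3.04% of all genes were called in males on day 7 at 150, 4.9% in males on day 2, 2.45% in females on day 7 and 5.46% in females on day 2. At 75 the shares were 0.451% and 0.764% in females and 0.44% and 0.247% in males on days 2 and 7. At 15 they were 0.022% in females on either day and 0.0385% and 0.011% in males; at 0.15 and 1.5 they were 0.0%, except 0.0055% in males on day 7 at 0.15. The call in males on day 7 was lost without replicate 1 at 150 (-0.75, adjusted p = 0.0513) and without replicate 2 at 150 (-0.73, adjusted p = 0.059), the arrays with the lowest values. It was also lost when only that pair of groups entered the fit (adjusted p = 0.0808).

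Averaged over both sexes and days, 16 arrays against 16, the Nr1i3 means were 9.92 at dose 0, 9.76 at 0.15, 9.98 at 1.5, 9.66 at 15, 9.59 at 75 and 9.30 at 150. The SD within groups was 0.17 to 0.36 over these doses. The change from dose 0 was -0.62 ± 0.10 (SE) at 150 (limma adjusted p = 1.58e-06; 95% interval -0.82 to -0.42) and -0.33 ± 0.10 at 75 (adjusted p = 0.0275). Without the 2 arrays that went against their dose labels the change at 75 was -0.35 (adjusted p = 0.0206). The change was -0.26 at 15, which passed before adjustment but not after it (limma adjusted p = 0.388; without those arrays -0.26, adjusted p = 0.452). It was -0.16 at 0.15 (adjusted p = 0.791) and 0.06 at 1.5 (adjusted p = 0.991). The call at 75 was lost when any of 5 arrays was left out: dose 0 females on day 7 replicate 2 (adjusted p = 0.0537), dose 0 males on day 2 replicate 1 (0.0502), and at 75 females on day 7 replicate 1 (0.0517) and males on day 7 replicate 1 (0.0607) or replicate 2 (0.0679). The call at 150 held without each of the 32 arrays in turn, with adjusted p from 5.07e-07 to 7.6e-06.

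Neighbouring doses, compared only after the values were seen, were not separated for CAR. The largest steps in Nr1i3 were -0.32 from 1.5 to 15 (limma adjusted p = 0.656) and -0.29 from 75 to 150 (adjusted p = 0.11). From 15 to 75 the step was -0.07 (adjusted p = 0.853). In females on day 7 the arrays at 0.15, 15 and 75 also lay below all 4 controls, while those at 1.5 read 10.26 to 10.38, within the control range of 10.17 to 10.63. Of all genes, 1.84%, 1.03% and 3.4% lay wholly below the controls at 0.15, 15 and 75 in that group.

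**Figure D1:**
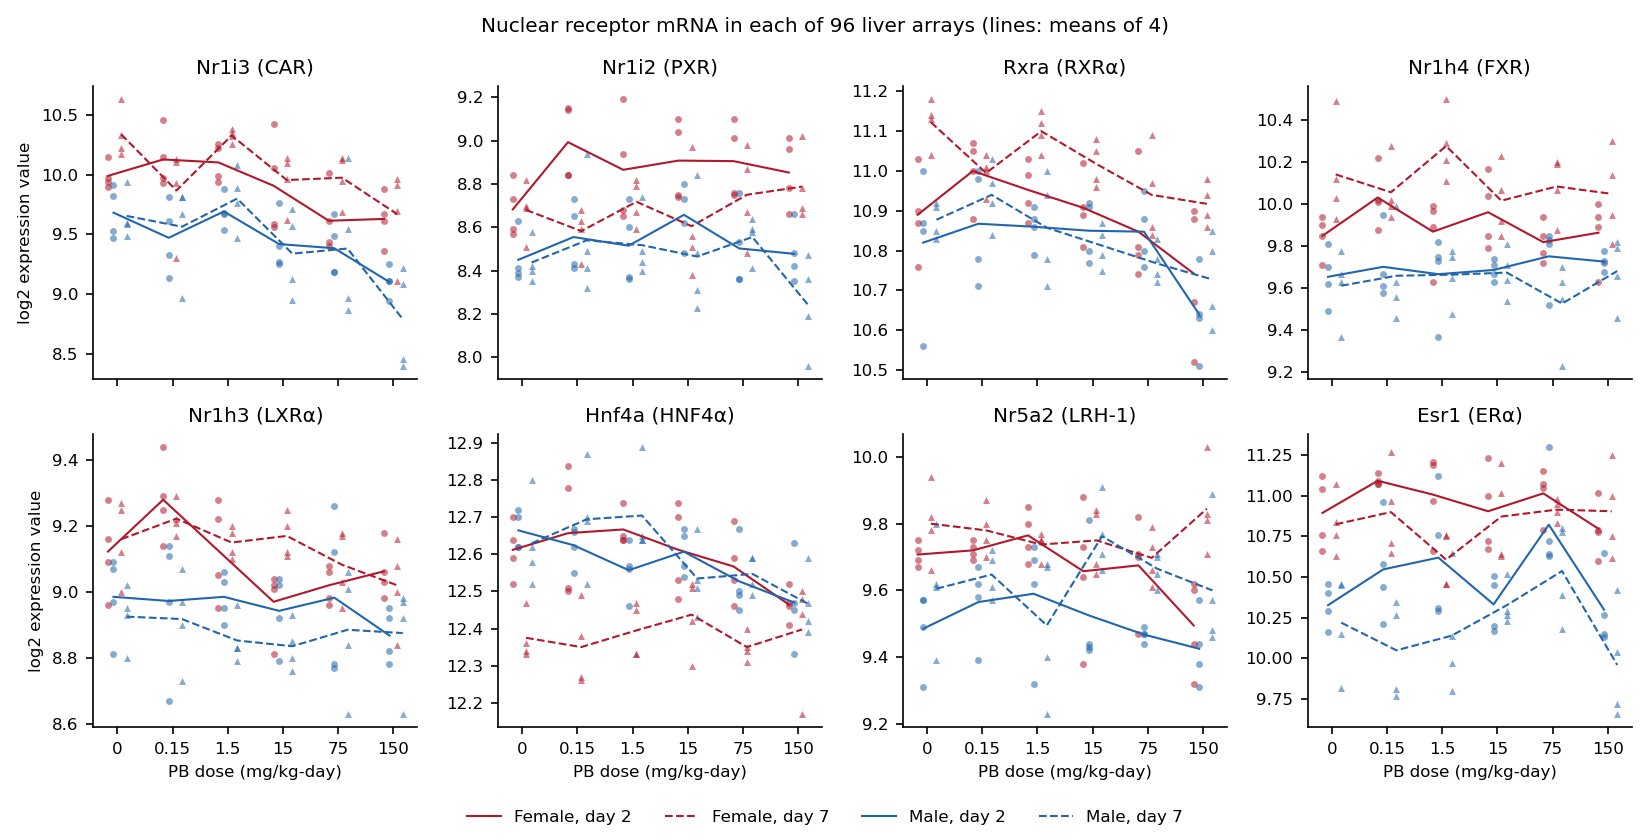
Deposited log2 expression value (vertical axis, scaled to each gene) of the 8 receptors against PB dose in mg/kg-day (horizontal axis, doses evenly spaced), with 1 point per array and lines through the means of 4. Red is female and blue is male, solid lines and circles are day 2, dashed lines and triangles are day 7; Nr1i3 at 150 lies between 8.40 and 9.96 against 9.47 to 10.63 at dose 0, and most blue lines run below the red ones except for Hnf4a.

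Whether the fall in CAR mRNA at 150 differed between the sexes or the days was tested directly. The response of Nr1i3 in females minus that in males was 0.22 on day 2 (95% interval -0.35 to 0.79) and 0.19 on day 7 (-0.38 to 0.76). The response on day 7 minus that on day 2 was -0.31 in females (-0.88 to 0.26) and -0.28 in males (-0.85 to 0.29). None of the 8 receptors passed in any of these 4 tests of a difference, and none had an unadjusted p below 0.05 in limma; of all genes, 0.0055% passed between the sexes on day 2, 0.0879% between the sexes on day 7, 0.874% between the days in females and 0.132% in males. With 4 arrays a group, differences within these intervals were not excluded.

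The shared partner of CAR and PXR moved less. The Rxra arrays at dose 0 read 10.87, 10.76, 11.03 and 10.90 in females on day 2 and 11.04, 11.13, 11.14 and 11.18 in females on day 7. At 150 they read 10.52, 10.67, 10.88 and 10.90 in females on day 2 and 10.98, 10.86, 10.89 and 10.94 in females on day 7. The groups overlapped on day 2 and did not overlap on day 7. In males the Rxra arrays read 11, 10.56, 10.87 and 10.85 on day 2 and 10.92, 10.91, 10.83 and 10.85 on day 7 at dose 0. At 150 the male arrays read 10.63, 10.64, 10.51 and 10.78 on day 2 and 10.66, 10.60, 10.80 and 10.85 on day 7, overlapping the controls on both days. Over both sexes and days Rxra was lower at 150 by -0.17 ± 0.04 (SE, 16 against 16 arrays; limma adjusted p = 0.00025), a 1.12-fold difference. This call belongs to 1 probe set. A second Rxra probe set, dimmer on average (mean 8.15), gave 0.10 ± 0.04 in the opposite direction (adjusted p = 0.105, over all probe sets), and the dimmest, near the floor of the scale (mean 3.92), gave 0.01.

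PXR mRNA was not called at any dose. The Nr1i2 means over both sexes and days were 8.56 at dose 0 and 8.65 to 8.68 at the doses from 0.15 to 75, with 8.59 at 150. The change at 150 was 0.03 ± 0.06 (SE; limma adjusted p = 0.822; 95% interval -0.10 to 0.15), whose lower bound lies well above the change in Nr1i3. The arrays at 150 read 8.66, 8.78, 9.01 and 8.96 in females on day 2 against 8.84, 8.57, 8.59 and 8.73 at dose 0. In males on day 7 they read 8.36, 7.96, 8.47 and 8.19 against 8.58, 8.42, 8.35 and 8.40. These groups overlapped, with the lowest Nr1i2 value of the series, 7.96, in a male array of day 7 at 150. The second Nr1i2 probe set gave 0.14 ± 0.06 at 150 (adjusted p = 0.0775, over all probe sets).

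HNF4α was the other receptor called at the highest dose. Over both sexes and days Hnf4a at 150 changed by -0.12 ± 0.04 (SE; limma adjusted p = 0.011), a 1.09-fold lower level. In females on day 2 the Hnf4a arrays read 12.52, 12.59, 12.64 and 12.70 at dose 0 and 12.47, 12.41, 12.46 and 12.52 at 150, a narrow separation. In females on day 7 they read 12.33, 12.47, 12.34 and 12.36 at dose 0 and 12.50, 12.17, 12.44 and 12.48 at 150, so 3 of 4 treated arrays lay above the control median. Males read 12.72, 12.62, 12.62 and 12.70 at dose 0 and 12.47, 12.33, 12.45 and 12.63 at 150 on day 2. On day 7 they read 12.52, 12.62, 12.58 and 12.80 at dose 0 and 12.47, 12.39, 12.42 and 12.59 at 150; both male comparisons overlapped. The other 3 Hnf4a probe sets gave -0.05, -0.15 and 0.01 (adjusted p = 0.776, 0.0507 and 0.926, over all probe sets), so the call did not extend to them.

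No call at 150 was made for FXR, LXRα, LRH-1 or ERα. Over both sexes and days FXR (Nr1h4) changed by 0.02 ± 0.06, LXRα (Nr1h3) by -0.09 ± 0.05, LRH-1 (Nr5a2) by -0.06 ± 0.05 and ERα (Esr1) by -0.08 ± 0.09 (SE). The Nr1h3 change passed before adjustment and not after it (limma adjusted p = 0.168). The 95% intervals were -0.10 to 0.13 for Nr1h4, -0.18 to 0.00 for Nr1h3, -0.15 to 0.03 for Nr5a2 and -0.25 to 0.10 for Esr1. In females on day 2 all 4 Nr5a2 arrays at 150, at 9.32 to 9.62, lay below the controls at 9.67 to 9.75; on day 7 the treated females, at 9.71 to 10.03, overlapped controls at 9.66 to 9.94. Other probe sets of Nr5a2 and Esr1 gave small positive values at 150, none of them called.

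In all, 3 of 8 receptors were lower at 150 over both sexes and days and none was higher, beside 9.42% of all genes lower and 8.27% higher (17.7% in either direction). The median change of the 8 was -0.08, against -0.01 over all genes. At 75 only Nr1i3 was called (1 of 8, lower; 8.92% of all genes in either direction, 3.56% lower). At 15 none was called and 1 of 8, Nr1i3, had an unadjusted p below 0.05 (0.11% of all genes called). At 0.15 and 1.5 neither a receptor nor any other gene was called, and no receptor had an unadjusted p below 0.05.

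**Figure D2:**
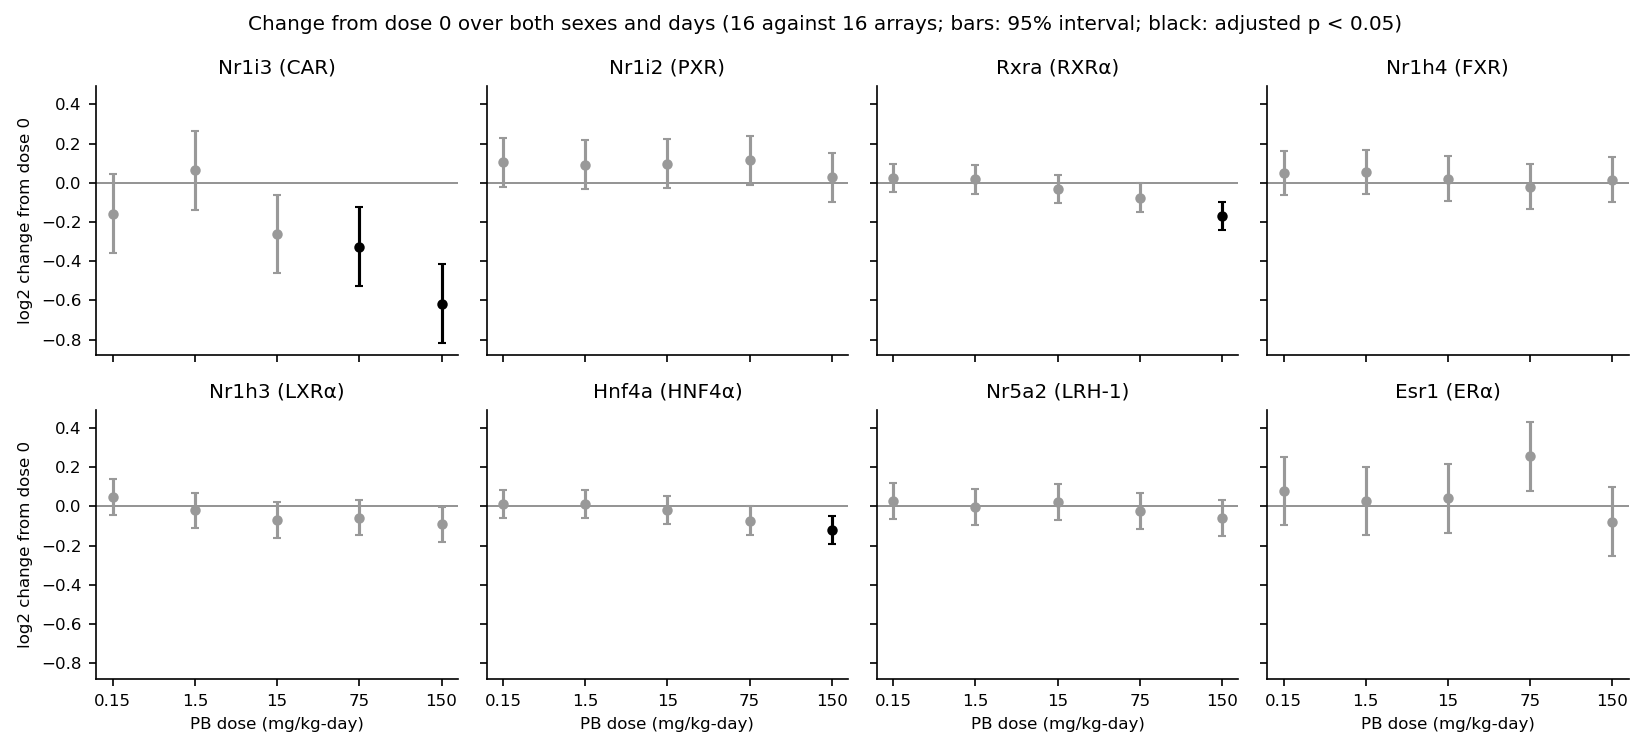
Change of each receptor from dose 0 (log2, vertical axis) at the 5 doses in mg/kg-day (horizontal axis, doses evenly spaced), averaged over both sexes and days, 16 against 16 arrays; bars are 95% intervals and black marks a limma adjusted p below 0.05. Nr1i3 is black at 75 (-0.33) and 150 (-0.62), and Rxra (-0.17) and Hnf4a (-0.12) are black at 150.

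The mean of ERα mRNA over both sexes and days was highest at 75, though no change from dose 0 was called there. The Esr1 arrays of males on day 2 read 10.29, 10.16, 10.40 and 10.46 at dose 0 and 10.72, 10.63, 11.30 and 10.64 at 75, all 4 above the controls (2.92% of all genes). The change was 0.50 ± 0.18 (SE) and was not called (limma adjusted p = 0.244; without the array labelled 75 that went against its label, 0.53, adjusted p = 0.232). In males on day 7 they read 10.46, 10.15, 10.45 and 9.82 at dose 0 and 10.78, 10.80, 10.18 and 10.39 at 75, which overlap. Female Esr1 arrays at 75 read 11.05, 11.07, 11.15 and 10.79 on day 2 and 10.95, 10.83, 10.98 and 10.90 on day 7, within or near the range of their controls. Over both sexes and days the change at 75 was 0.26 ± 0.09 and just missed the threshold (adjusted p = 0.0538; 0.054 without the 2 arrays). From 75 to 150 Esr1 fell by 0.33 on the log2 scale (limma adjusted p = 0.0238), the only step between neighbouring doses called for a receptor. Of all genes, 2.28% were called in that step. Steps between neighbouring doses were compared only after the values were seen. This step was not rerun with another probe set or without the array labelled 75 that went against its label. At 75, 8 of 12 Kupffer cell and macrophage markers were higher than at dose 0 (median change 0.41), beside 5.36% of all genes. Their mean level ran from 8.58 to 10.24 at dose 0, from 9.06 to 11 at 75 and from 8.85 to 10.02 at 150. The neutrophil list had a mean level of 6.23 at dose 0, 6.65 at 75 and 6.71 at 150. At 150 only S100a8 (2.52) and Lcn2 (1.38) of this list were called, both higher. Its other markers changed by -0.11 to 0.27 at 150, so the higher mean there does not describe the whole list. The other marker lists moved less at 75. The part of these cell types in the Esr1 values was not tested.

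The liver is a mixture of cells, and in whole tissue fewer cells of a type cannot be told apart from less RNA per cell. At 150, where Nr1i3, Rxra and Hnf4a were lower, 4 of 9 measured hepatocyte markers were lower, with a median change over the list of -0.07, and their mean level ran from 14.19 to 14.27 at dose 0 and from 14.11 to 14.17 at 150. Sinusoidal endothelial markers were lower for 4 of 10 (median -0.12; mean level 8.33 to 8.84 at dose 0, 8.29 to 8.87 at 150) and stellate cell markers for 5 of 10 (median -0.19; 8.58 to 8.98 and 8.29 to 8.84). Kupffer cell markers were higher for 2 of 12 (median 0.17; 8.58 to 10.24 and 8.85 to 10.02). Neutrophil markers were higher for 2 of 8 (median -0.04; 5.74 to 6.98 and 5.95 to 7.22), lymphocyte markers for 1 of 8 (median -0.01; 5.71 to 6.04 and 5.62 to 6.04) and bile duct markers for 0 of 6 (median -0.04; 5.03 to 5.44 and 4.99 to 5.40). No marker is at 0 on this log2 scale, on which the bile duct and lymphocyte lists lie lowest. Of all genes, 8.27% were higher and 9.42% lower at 150. The part of these cell types in the receptor changes was not tested.

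The receptors also differed between the sexes. Averaged over the 12 pairs of groups with the same dose and day, 7 of 8 were higher in females and Hnf4a was lower (48 against 48 arrays; 22.1% of all genes were higher, 19.3% lower, 41.4% in all). The difference was largest for Esr1, at 0.55 ± 0.05 (SE; limma adjusted p = 3.48e-15), and Nr1i3, at 0.52 ± 0.06 (adjusted p = 5.52e-12). It was 0.33 for Nr1h4 (2.39e-14), 0.28 for Nr1i2 (3.83e-10), 0.20 for Nr1h3 (1.49e-09), 0.15 for Nr5a2 (2.08e-06), 0.13 for Rxra (2.55e-07) and -0.10 for Hnf4a (0.000101). The median difference of the 8 was 0.24, against -0.01 over all genes. Leaving out the 2 arrays that went against their labels moved none of these by more than 0.01.

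The CAR difference between the sexes ran through the whole series. The female mean of Nr1i3 was above the male mean in 12 of 12 pairs, by 0.23 to 0.88, and in 5 of 12 every female array lay above every male one. Over all genes the share with every female array above every male one was 2.67% to 7.94% in a single pair. How many of all genes had a higher female mean in 12 of 12 pairs, or 5 of 12 pairs apart, was not counted. The same holds for the counts of pairs of the other receptors below. The 48 female arrays had a lowest value of 9.11, a median of 9.97 and a highest of 10.63; the 48 male arrays ran from 8.40 through 9.51 to 10.14, so the sexes overlapped across doses. At 150 the female Nr1i3 means were 9.63 ± 0.22 (SD, n = 4) on day 2 and 9.67 ± 0.39 on day 7, close to the means of untreated males, 9.68 ± 0.22 and 9.65 ± 0.20.

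Esr1 showed the widest separation. The female mean was higher in 12 of 12 pairs, by 0.19 to 0.94, and 8 of 12 pairs did not overlap, beside 2.67% to 7.94% of all genes in a pair. Female Esr1 values ran from 10.46 through a median of 10.92 to 11.27 and male values from 9.66 through 10.30 to 11.30. The highest male value, 11.30, was the array of day 2 at 75 named above. A second Esr1 probe set (mean 8.13) gave 0.42 ± 0.10 (adjusted p = 0.000494, over all probe sets) and the dimmest, near the floor (mean 4.80),, 0.07 (adjusted p = 0.126).

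The 2 lipid sensors and PXR were also higher in females in every pair. For Nr1h4 the female mean was 0.07 to 0.62 higher and 5 of 12 pairs did not overlap (2.67% to 7.94% of all genes in a pair, for each count in this paragraph); female values had a median of 9.98 (9.63 to 10.50) and male values of 9.68 (9.23 to 9.99). For Nr1h3 the difference was 0.03 to 0.33, with 5 of 12 pairs apart, and the medians were 9.12 (8.81 to 9.44) and 8.93 (8.63 to 9.26). For Nr1i2 it was 0.04 to 0.54, with 3 of 12 pairs apart, and the medians were 8.75 (8.38 to 9.19) and 8.45 (7.96 to 8.94). The second Nr1i2 probe set gave 0.19 (adjusted p = 1.93e-06, over all probe sets). Nr5a2 had the higher mean in females in 11 of 12 pairs, with 3 pairs apart; of its other 3 probe sets, none was called (0.10, 0.00 and 0.02).

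The sex differences of Rxra and Hnf4a depended on the probe set. The bright Rxra probe set was higher in females in 11 of 12 pairs, with 5 pairs apart, all on day 7 (4.64% to 7.94% of all genes in those pairs), but the second one gave -0.05 (adjusted p = 0.0629, over all probe sets). The bright Hnf4a probe set was lower in females in 8 of 12 pairs. Its 4 non-overlapping pairs were all on day 7, at 0, 0.15, 1.5 and 75 (3.89% to 5.75% of all genes lower in those pairs), where female values were 12.26 to 12.49 and male values 12.49 to 12.89. The second Hnf4a probe set gave 0.14 in the opposite direction (adjusted p = 0.0262) and the dimmest gave -0.15 (adjusted p = 3.08e-06), so a single direction cannot be given for the gene.

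**Figure D3:**
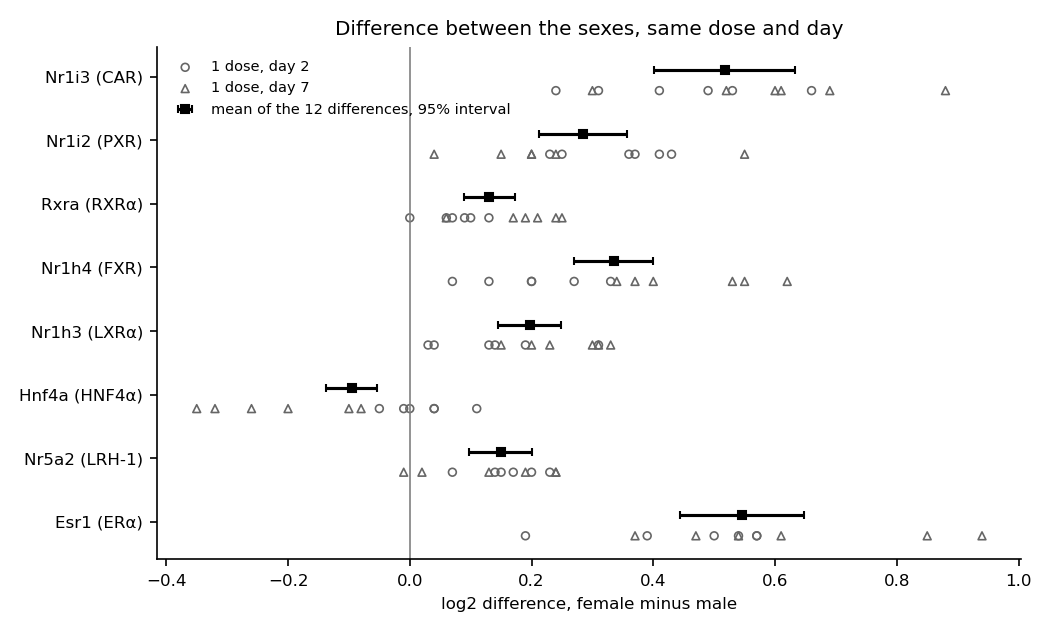
Female minus male difference (log2, horizontal axis) of the 8 receptors at each dose on day 2 (circles) and day 7 (triangles), with the mean of the 12 differences and its 95% interval (squares and bars). All 12 differences are above 0 for Nr1i3, Nr1i2, Nr1h4, Nr1h3 and Esr1, and 8 of 12 are below 0 for Hnf4a.

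Among untreated mice alone, the sexes were less clearly apart on day 2 than on day 7. On day 2 none of the 8 was called and 2, Esr1 and Nr5a2, had an unadjusted p below 0.05 (limma; 2.06% of all genes called, 1.09% higher and 0.962% lower); the Esr1 difference was 0.57 (adjusted p = 0.0724). On day 7 Nr1i3 (0.68, adjusted p = 0.0233), Rxra (0.25, 0.0217), Nr1h4 (0.53, 0.000934) and Esr1 (0.60, 0.0213) were higher in females and Hnf4a (-0.26, 0.0172) was lower, 5 of 8 against 6.71% of all genes (4.63% higher, 2.08% lower). For all 5 the 4 female and 4 male arrays did not overlap, as was so for 7.94% of all genes in the higher and 3.89% in the lower direction. Single arrays decided several of these calls: without dose 0 male replicate 4 on day 7 only Nr1h4 remained called, with Nr1i3 at 0.66 (adjusted p = 0.0647), Rxra at 0.24 (0.0644), Hnf4a at -0.20 (0.144) and Esr1 at 0.47 (0.162). Leaving out male replicate 2 or 3, or female replicate 3 or 4, each left 3 calls, and leaving out female replicate 2 ended that of Nr1i3 (0.59, adjusted p = 0.103). With only the groups compared in the fit, 1 of the 5 calls was made. Whether the difference between the sexes differed between the days was not tested.

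Marker genes of several cell types also differed between the sexes, beside 22.1% of all genes higher in females and 19.3% lower. Over all doses and days 12 of 12 Kupffer cell and macrophage markers were higher in females (median 0.41), with a mean level of 8.99 to 11 in females and 8.58 to 10.24 in males. Sinusoidal endothelial markers were higher for 6 of 10 (median 0.12; 8.41 to 8.93 and 8.23 to 8.79) and stellate cell markers for 7 of 10 (median 0.11; 8.61 to 9.10 and 8.29 to 9.27). Of 9 hepatocyte markers 3 were higher and 2 lower (median 0.02; 14.11 to 14.27 and 14.12 to 14.25). Lymphocyte markers were higher for 3 of 8 (median 0.07; 5.65 to 6.48 and 5.59 to 6.04). Of 8 neutrophil markers 1 was higher and 1 lower (median 0.01; 5.83 to 7.33 and 5.50 to 7.53), and of 6 bile duct markers none was higher and 1 was lower (median 0.00; 4.92 to 5.36 and 4.98 to 5.44). The ranges of the mean level overlapped between the sexes for all 7 lists. The part of these cells in the receptor differences was not tested.

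Day alone gave no call. Between day 2 and day 7 at dose 0, none of the 8 was called in females (3 with an unadjusted p below 0.05 in limma; 0.0165% of all genes called) or males (0 unadjusted; 0.0% of all genes called). The 3 were Rxra (0.23, limma adjusted p = 0.291), Hnf4a (-0.24, 0.259) and Nr1h4 (0.29, 0.464).

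The 19 probe sets of the 8 genes were set side by side because the brightest one stood for each gene above. Nr1i3, Nr1h4 and Nr1h3 have 1 each, so no second measurement of CAR mRNA exists here. Probe levels differ by design of the probe, so only differences within a probe set are compared. Called changes at 150 were limited to the brightest probe sets of Nr1i3, Rxra and Hnf4a (14.1% of the 34945 probe sets were called). Between the sexes, Nr1i2 and Esr1 were called in the same direction by 2 probe sets each (37.1% of all probe sets were called).

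**Figure D4:**
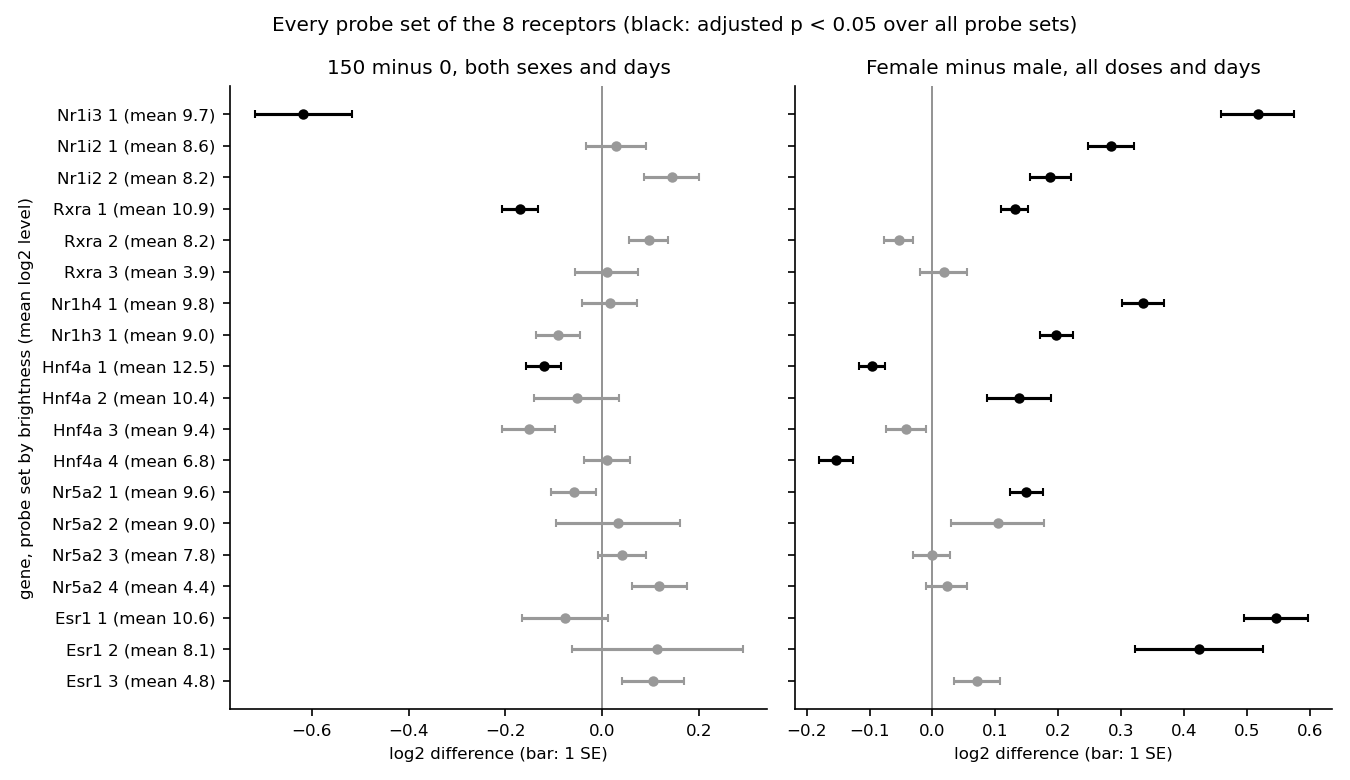
Difference between 150 and dose 0 over both sexes and days (left, log2, with 1 SE) and between females and males over all doses and days (right, log2, with 1 SE) for each of the 19 probe sets, numbered by brightness with their mean log2 level; black marks an adjusted p below 0.05 over all probe sets. At left only the brightest probe sets of Nr1i3, Rxra and Hnf4a are black, and at right the brightest (-0.10) and second (0.14) probe sets of Hnf4a lie on opposite sides of 0.

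The receptors co-varied only in part once dose, sex and day were taken out. Deviations from the group means over the 96 arrays were correlated for the 28 pairs of receptors, with p from 100000 permutations within groups and Benjamini-Hochberg adjustment over the 28 pairs. The 2 farthest arrays left out below were those whose deviation in the first-named gene lay farthest from its median. Arrays far out in the second gene were not left out for that. Rxra went with Nr1h3 (r = 0.44, rho = 0.44; adjusted p = 0.00196 and 0.00532; r = 0.43 without the 2 farthest arrays), with Nr1h4 (r = 0.38, rho = 0.38; 0.00448 and 0.0105; 0.33) and with Hnf4a (r = 0.33, rho = 0.36; 0.0121 and 0.0107; 0.35). Nr1i3 went with Nr1h3 (r = 0.35, rho = 0.36; 0.0287 and 0.0135; 0.30), which was seen in males (r = 0.53) and hardly in females (r = 0.06); the difference between the sexes was not tested. Nr1i3 with Nr1h4 passed for r (0.34, adjusted p = 0.0287) but not for rho (0.29, adjusted p = 0.0701). Nr1i3 and Esr1 went in opposite directions (r = -0.37, rho = -0.36; adjusted p = 0.0175 and 0.0135; -0.35 without the 2 farthest arrays), at -0.25 in females and -0.45 in males. CAR and its partner, Nr1i3 and Rxra, were at r = 0.18 (adjusted p = 0.252). The arrays share RNA processing and normalization within an array, which such correlations include. How often pairs of other genes correlated to this degree was not measured. The 2 male arrays that went against their dose labels were kept in these deviations.

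Over the 24 group means, the genes with the pattern most like each receptor were found among the 9097 genes at or above the median level, as a description. For Nr1i3 they were Acot2 (r = 0.925), Notum (0.924) and Igfals (0.923). For Nr1h4 they were Cyp7a1 (0.947), which encodes the rate-limiting enzyme of bile acid synthesis, Acot3 (0.942) and Rasa3 (0.936). For Rxra they were Slc38a3 (0.946), Ranbp10 (0.939) and Cpt1a (0.931), the last encoding a carnitine palmitoyltransferase of fatty acid oxidation. For Esr1 they were Flot2 (0.944), Ctsc (0.94) and Tm6sf2 (0.924), for Nr1h3 Psmd9 (0.926), Ccdc32 (0.903) and Aopep (0.902), and for Nr1i2 Ptpn2 (0.904), Sfxn2 (0.878) and Slc25a44 (0.871). Hnf4a had Skil (0.883), Oser1 (0.881) and Pafah1b1 (0.876), and Nr5a2 had Spata13 (0.895), Wdr81 (0.875) and Amer1 (0.874). The 24 points hold both sexes, so a difference between the sexes shared by 2 genes raises these values.

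The targets of CAR and PXR, drug-metabolism and transport genes, were higher at the highest dose. Of 32 measured targets of CAR and PXR, 31 were higher at 150 over both sexes and days and none was lower (limma). Their median change was 1.13, against -0.01 over all genes, of which 8.27% were higher and 9.42% lower. The list was drawn up with earlier results of these data known, so its counts describe the list and test nothing. Cyp2c55 was 6.28 log2 units higher, Cyp2b10 5.78, Cyp2c65 3.87 and the glutathione transferase gene Gstm3 2.44. Abcb1a, a drug exporter gene and the remaining target, named after its value was seen, gave 0.33 (adjusted p = 0.23). At 75, 27 of 32 were higher (median 0.81), beside 5.36% of all genes. These targets rose in the same arrays in which Nr1i3 was lower. The upstream partners of CAR were mixed, with a median change of 0.00 over the 10 measured. Tubb5 (0.38) and Hsp90aa1 (0.25), a chaperone gene, were higher. Egfr (-0.44), the gene of the EGF receptor, and Ppp2ca (-0.11), a phosphatase subunit gene, were lower.

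Targets of the other receptors changed in both directions, except those of LRH-1, none of which was higher. Of 14 FXR targets 2 were higher and 4 lower at 150 (median -0.03), among them the bile acid synthesis gene Cyp8b1 (-0.51), the phospholipid exporter gene Abcb4 (-0.39), Slco1b2 (0.25) and the bile acid conjugation gene Baat (-0.18). Of 14 LXR targets 1 was higher and 4 lower (median -0.05): Lpl (0.73), the sterol exporter genes Abcg5 (-0.35) and Abcg8 (-0.34), and Mylip (-0.34) had the largest changes. Of 17 HNF4α targets 2 were higher and 7 lower (median -0.07), with G6pc at -0.61, Ppara at -0.60, Cyp8b1 at -0.51 and Mttp at 0.29. Of 10 LRH-1 targets none was higher and 6 were lower (median -0.20), led by Hsd3b5 (-1.07), the scavenger receptor gene Scarb1 (-0.77), Cyp8b1 and Abcg5. Of all genes, 8.27% were higher and 9.42% lower at 150. The lists share genes, Cyp8b1 for 1, so their counts are not independent. They do not mark whether a receptor raises or lowers a gene, so the counts do not measure receptor activity.

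Other members of the receptor family and its cofactors gave a background for the 8. Of 36 other nuclear receptor genes 3 were higher and 7 lower at 150 (median -0.02), beside 8.27% of all genes higher and 9.42% lower. The largest changes were Rarb (0.66), a retinoic acid receptor gene, Ppara (-0.60), the fatty acid receptor gene, Pparg (0.43) and Nr2f6 (-0.24). Ppara was called in each sex and on each day, at -0.55 to -0.70, whereas Nr1i3 was called in 1 of these 4. Of 18 receptor coregulator genes none was called in either direction (median -0.01). Of 14 hepatocyte transcription factor genes 1 was higher and 3 lower (median -0.06), with Foxa3 at -0.50, Stat5b at -0.30, Onecut2 at -0.27 and Nfe2l2 at 0.23. Between the sexes, 8 of the 36 other receptor genes were higher in females and 12 lower (median -0.04), against 7 and 1 of the 8 followed here. All these counts rest on the brightest probe set of each gene. For Rxra and Hnf4a the direction depended on the probe set, and no other Nr5a2 probe set was called. Of all genes, 22.1% were higher in females and 19.3% lower.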

How the data were processed

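Liver total RNA was biotin-labelled and hybridised to 1 oligonucleotide array per sample, per the labels' protocols. The deposited values are log2 expression values per probe set, on a scale common to all arrays as the authors supplied them; the normalization and its software are not given in the sources used here. Array medians ran from 5.35 to 5.44, and the number of arrays limits the precision. Of 45101 probe sets, 34945 had 1 gene symbol, 932 several and 9160 none in the platform annotation, and 64 were controls; 34741 were matched to the RefSeq gene table by gene ID. Probe sets with 1 symbol were reduced to 18193 genes by the highest mean.

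Groups came from the sample titles. limma 3.58.1 (R 4.3.3) was fitted to all genes with 1 mean per sex, day and dose (72 residual degrees of freedom); two-sided p-values were adjusted within a contrast by Benjamini-Hochberg and a threshold of 0.05. The procedure was tested on simulated data. The named genes are the 8 receptors, up to 4 called genes with the largest change per list, 3 genes most like each receptor, Xist and Cyp2b10; Cyp2c55 is also a list gene. Members, lists and tests were chosen with earlier results of these data known. Steps between neighbouring doses were added after the values were seen. Alternatives were other probe set summaries, filters, normalizations and spread models, a replicate block, leaving out each array, and, added after the data were seen, leaving out the 2 doubted male arrays. List genes without a probe set of their own were not analysed here.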

Additional observations from a re-analysis of the deposited data

Results flagged for a closer look

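Of the 192 sets of 4 arrays (8 receptors in 24 groups), 9 held 1 array far from the other 3 by Dixon's 95% criterion; chance gives about 1 in 20, or 9.6. Nr1i3 read 8.97 in replicate 3 of males on day 7 at 0.15, below 9.67 to 9.81. Nr1i2 read 8.63 in replicate 3 of untreated males on day 2, above 8.37 to 8.41. Nr1h4 read 9.52 in replicate 4 of males on day 2 at 75, below 9.81 to 9.85. Nr1h3 read 8.81 in replicate 1 of females on day 2 at 15, below 9.01 to 9.04, and 8.63 in replicate 2 of males on day 7 at 150, below 8.92 to 8.98. Hnf4a read 12.74 in replicate 1 of females on day 2 at 1.5, above 12.64 to 12.65, and 12.89 in replicate 2 of males on day 7 at 1.5, above 12.64 to 12.65. Nr5a2 read 9.81 in replicate 1 of males on day 2 at 15, above 9.42 to 9.44; this is 1 of the 2 arrays that went against their dose labels. Esr1 read 11.30 in replicate 3 of males on day 2 at 75, above 10.63 to 10.72.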

How the results depend on the processing

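The count of receptors called by sex and day, 1, became 2 when genes below the median level were left out and 2 with quantile normalization. With only the groups compared in the fit the count stayed at 1, but it was a different call. The Nr1i3 call in males on day 7 at 150 was lost there (limma adjusted p = 0.0808). Over both sexes and days the 4 calls became 2 with the mean of all probe sets of a gene and 2 with the second-brightest probe set. Between the sexes at dose 0 the 5 calls became 2 with either of these and 1 with only the groups compared in the fit. Leaving out each array in turn gave 0 to 2 calls by sex and day and 1 to 5 between the sexes at dose 0. With a second-brightest probe set the sign turned for Rxra (0.10 at 150, -0.0363 between untreated sexes on day 7, -0.0536 between sexes over all doses), Hnf4a (0.0575 and 0.14 in the same comparisons of the sexes), Nr5a2 (0.032 at 150) and Esr1 (0.11 at 150); with the mean of all probe sets it turned for Nr5a2 (0.0329) and Esr1 (0.047) at 150. The Nr1h4 change at 150, 0.02, ran from -0.0053 to 0.0447 without single arrays and was below 0 in 3 of these. The other counts were within 1.5 times of the reported ones under the alternatives run. A further 37 single values for named receptors kept their direction and lost their call. Replicate numbers did not pair the arrays: same-numbered arrays of different groups correlated at 0.001 on average, and a replicate block left 1, 4, 5 and 8 calls as without it. Subtracting each array's median shifted the median change of all genes by between -0.048 and 0.034.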
